A study of Mus musculus with 6 samples.

Results

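Cholesterol is made, sensed and exported by a small set of enzymes, membrane proteins and transcription factors, and 31 of their genes were followed here in the mouse hippocampus. They were taken by name from the 32201 genes of the deposited table. The set holds 18 enzymes of sterol synthesis and 7 genes grouped here as SREBP control. It also holds 6 genes of the liver X receptors (LXR), cholesterol efflux and cholesterol clearance. RNA was sequenced from 3 libraries of mice given baicalin at 20 mg/kg and 3 libraries of mice given saline. All were male C57BL/6N mice, an inbred strain, labelled 8 weeks old, and both groups had been through chronic unpredictable mild stress, an unpredictable run of stressors such as restraint, cage tilt and altered lighting. Baicalin is a plant flavonoid that carries a glucuronic acid group. Unstressed mice, a group the protocol names, are not analysed here. The labels do not tie libraries to individual mice, so the p-values reflect only how far these libraries differ from each other, which may be technical.

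Little cholesterol crosses the blood-brain barrier, so the brain makes its own, chiefly in astrocytes and oligodendrocytes. When sterols run low in the endoplasmic reticulum, SCAP carries the SREBP factors to the Golgi, where they are cut and then switch on the synthesis genes. INSIG proteins hold SCAP back when sterols are plentiful. Oxysterols activate LXR, which raises the efflux transporters ABCA1 and ABCG1 and the lipid carrier apolipoprotein E. Neurons dispose of cholesterol through CYP46A1, which turns it into 24-hydroxycholesterol.

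The promoters of Hmgcs1, Srebf2 and Apoe are printed because Hmgcs1 was the member whose promoter held the sterol regulatory element searched for, and because Srebf2 and Apoe were the members with an unadjusted p under 0.05. RefSeq (GRCm38.p6) promoters, 250 bases before to 50 after a transcript start, were matched by symbol for 26 of the 31 members. The stretches printed end before the gene starts given by both RefSeq and the deposited table. Capitals mark the sterol regulatory element TCACNCCAC and the NF-Y box CCAAT, each on either strand.
Hmgcs1, chr13:119690101-119690350, plus strand: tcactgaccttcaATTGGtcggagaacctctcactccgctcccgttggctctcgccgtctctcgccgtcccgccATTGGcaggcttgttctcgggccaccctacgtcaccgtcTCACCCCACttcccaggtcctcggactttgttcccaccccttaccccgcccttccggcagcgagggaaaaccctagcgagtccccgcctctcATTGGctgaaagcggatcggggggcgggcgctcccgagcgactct
Srebf2, chr15:82147019-82147180, plus strand: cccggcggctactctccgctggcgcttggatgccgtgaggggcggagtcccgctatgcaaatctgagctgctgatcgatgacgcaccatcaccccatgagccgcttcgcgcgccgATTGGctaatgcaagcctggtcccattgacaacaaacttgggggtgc
Apoe, chr7:19699189-19699438, minus strand: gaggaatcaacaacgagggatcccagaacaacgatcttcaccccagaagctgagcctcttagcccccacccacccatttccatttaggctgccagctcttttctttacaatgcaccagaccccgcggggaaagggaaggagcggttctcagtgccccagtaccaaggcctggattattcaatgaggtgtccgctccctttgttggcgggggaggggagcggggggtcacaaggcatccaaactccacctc
The sterol regulatory element in the form searched for, a sequence that SREBP binds, was found in 1 of 26 matched members (3.85%). It was found in 1.44% of 27025 genes with a promoter in the table. Sequences that differ from it at a fixed base were not counted. The NF-Y box, bound by a factor that works beside SREBP at sterol genes, was found in 20 of 26 members (76.9%) and in 41.1% of all genes. The GC box GGGCGG was found in 22 members (84.6%), against 38.2% of all genes, and the E-box CACGTG in 6 (23.1%), against 8.09%. A direct repeat, GGTCA 2 times with 4 unfixed bases between, was found in 0 members and in 0.0518% of all genes. Repeats of other spacing were not searched, so this count does not describe LXR sites. These are matches of letters on both strands within one window, and say nothing of binding in these samples.

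No member passed the adjusted threshold. In edgeR (quasi-likelihood F test, Benjamini-Hochberg adjustment over 13153 genes), 0 of the 30 members tested had an adjusted p under 0.05, against 6 genes in all (0.0456%, with 0.0152% higher and 0.0304% lower). At an unadjusted p under 0.05, which 11.8% of all genes reached, there was 1 member higher with baicalin, Apoe, where 6.34% of all genes were higher, and 1 lower, Srebf2, where 5.46% of all genes were lower. The 2 groups of libraries did not overlap for 3 of 30 members (Apoe higher, Srebf2 and Stard4 lower), against 19.4% of all genes. In DESeq2, 1 member (Apoe) passed its adjusted threshold, among 218 genes. Of the 30 members 16 had a positive log2 change and 14 a negative one, with a median of 0.0029 against -0.00063 over all genes tested. With libraries scaled to TPM (counts per length, summed to the same total) the split was 6 positive and 24 negative, and the median of all genes lay at -0.08. The calls of all genes at an unadjusted p under 0.05 were 834 higher and 718 lower, and 334 higher and 1553 lower under TPM scaling.

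The fitted changes were small and most were bounded closely. Of the 30 log2 changes 28 lay within 0.2 of 0, and the exceptions were Apoe at 0.27 and Dhcr7 at -0.30. The 95% interval of the log2 change lay inside a 1.5-fold change either way for 28 of 30 members. The median interval reached 0.19 to each side, from 0.11 for Scap to 0.66 for Dhcr7. Median absolute log2 change was 0.09 over the members and 0.10 over all genes. The member not tested was Nr1h3, whose mean of 0.926 FPKM (fragments scaled to gene length and library size, as deposited) lay under the filter of 1.

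**Figure D1:**
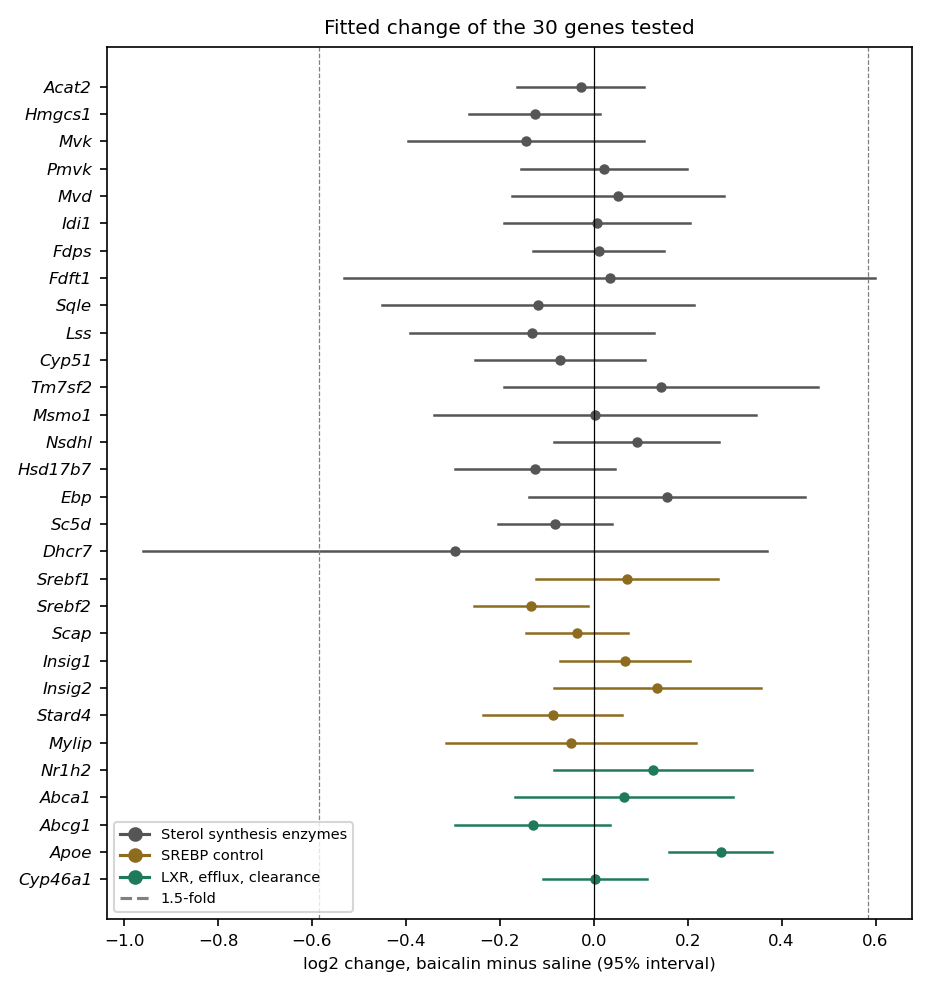
Fitted log2 change (baicalin minus saline) of the 30 members tested, as points with 95% intervals from edgeR, grouped by role, with dashed lines at a 1.5-fold change. The interval of Apoe lies above 0 and that of Srebf2 just below it, and those of Dhcr7 and Fdft1 are the widest.

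Levels, given here as FPKM so that genes of different length can be compared, covered a wide range. Apoe averaged 332 FPKM over the 6 libraries, followed by Hmgcs1 at 38.5, Cyp46a1 at 33.1 and Srebf2 at 19.4. The lowest were Nr1h3 at 0.926, Lss at 2.66 and Abca1 at 2.69. Hmgcs1, which makes the first committed precursor of mevalonate, stood 14.5 times above Lss, which closes the sterol ring. Raw counts behind these levels were at least 880 in every library for the members tested and 143 to 205 for Nr1h3.

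**Figure D2:**
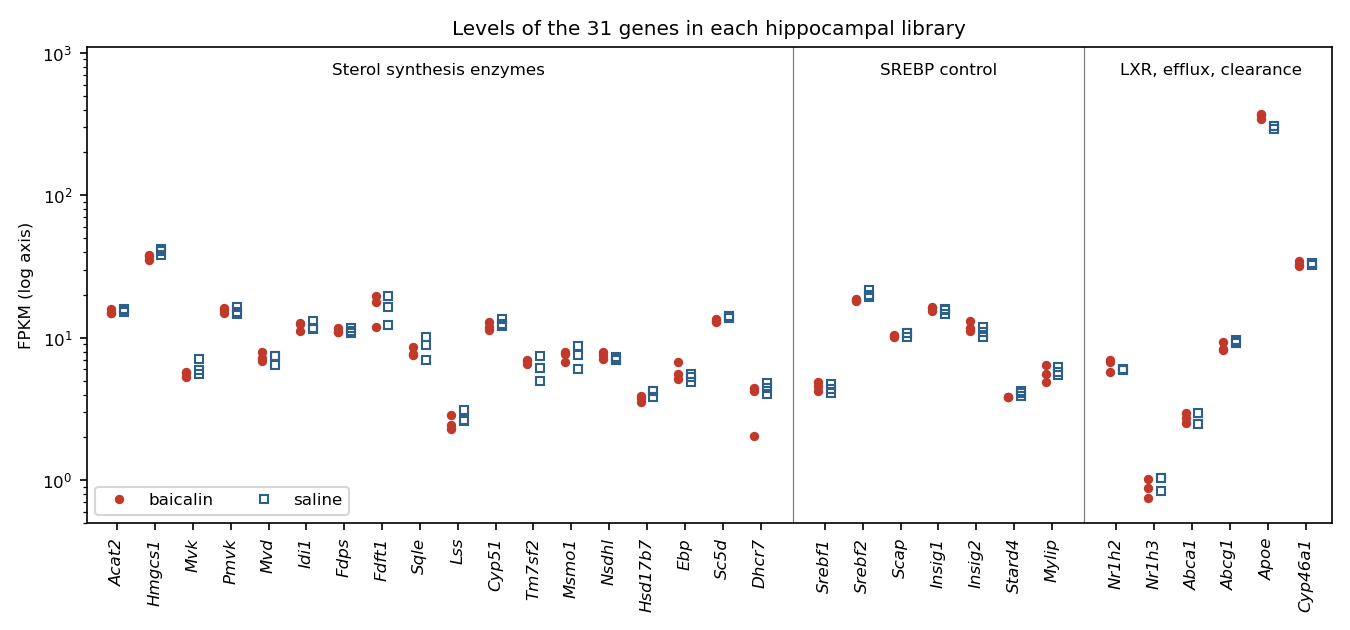
FPKM (log axis) of each of the 31 members in the 3 baicalin libraries (filled circles) and the 3 saline libraries (open squares), grouped by role. Nr1h3 lies lowest, at 0.746 to 1.04 FPKM, Apoe lies highest, at 294 to 375 FPKM, and the groups overlap for most genes.

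The mevalonate arm builds farnesyl diphosphate from acetyl-CoA, and none of its 7 genes passed. Their log2 changes were positive in 4 and negative in 3, with a median of 0.0069 and no adjusted p below 0.451. Summed over the arm, levels were 106.0, 101.3 and 104 FPKM in the baicalin libraries and 107, 113 and 104 FPKM in the saline libraries. Hmgcs1, whose promoter is printed above with 1 sterol regulatory element and 3 NF-Y boxes, had 37.9, 35.1 and 37.3 FPKM with baicalin, against 41.0, 42.1 and 37.9 with saline. Its groups touched, since baicalin library 1 lay just above saline library 3. Its log2 change was -0.13 ± 0.06 (SE), with an adjusted p of 0.451 in edgeR. The log2 change was negative in 20 of 20 alternatives, from -0.20 to -0.09. Its unadjusted p, 0.0710 here, was under 0.05 in 4 of them, such as 0.0235 without saline library 3 and 0.0176 under TPM scaling.

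The other mevalonate genes showed no common direction. Acat2, which joins acetyl-CoA units and has a close paralog in Acat3, had a log2 change of -0.03. The kinases Mvk and Pmvk had -0.14 and 0.02, and the decarboxylase Mvd had 0.05. Idi1, the isopentenyl diphosphate isomerase, averaged 12.1 ± 0.853 FPKM with baicalin and 12.1 ± 0.794 FPKM with saline (± SD, n = 3 libraries per group). Fdps, which makes farnesyl diphosphate, averaged 11.2 ± 0.405 FPKM with baicalin and 11.2 ± 0.434 FPKM with saline. For Fdps the 95% interval of the log2 change ran from -0.13 to 0.15.

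The squalene steps differed widely between libraries of the same group. Fdft1, squalene synthase, had 11.9, 17.9 and 19.7 FPKM in the baicalin libraries and 12.3, 19.8 and 16.5 FPKM in the saline libraries. Library 1 of each group was therefore the low one, and the groups overlapped fully. The log2 change of 0.03 had an interval from -0.53 to 0.60. Fdft1 overlaps Ctsb, a cathepsin gene on the opposite strand with 34464 counts on average against 5134 for Fdft1. The sources used here do not say whether counting used strand, so reads of such pairs cannot be told apart. Sqle, squalene epoxidase, had 7.67, 7.63 and 8.56 FPKM with baicalin, against 8.96, 10.1 and 6.998 with saline. Saline library 3 held the lowest value of Sqle and saline library 2 the highest, and the log2 change was -0.12 ± 0.14 (SE). Without saline library 3 it was -0.25 (unadjusted p = 0.0390 and adjusted p = 0.468 in edgeR), and without saline library 2 it was 0.0057. Lss had a log2 change of -0.13 ± 0.11.

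After lanosterol, 8 enzymes remove methyl groups and shift double bonds to reach cholesterol, and 4 of them were positive and 4 negative, with a median of -0.03. Dhcr7, which reduces 7-dehydrocholesterol, had the largest fitted change of the members and the widest interval. It had 2.06, 4.22 and 4.46 FPKM with baicalin, against 4.42, 4.78 and 4.04 with saline. Baicalin library 1 alone was low, with 883 counts against 1818 or more in each other library, and the other baicalin libraries lay within the saline range. The log2 change of -0.30 ± 0.28 (adjusted p = 0.687 in edgeR) was -0.02 without that library. Sc5d, which introduces a ring double bond, had 12.9, 13.1 and 13.6 FPKM with baicalin, against 14.2, 14.2 and 13.7 with saline. Its FPKM values did not overlap between groups, whereas its TMM-scaled counts did, and its log2 change was -0.08 ± 0.05 (adjusted p = 0.548 in edgeR).

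The remaining enzymes of this arm showed no common direction. Cyp51, the lanosterol demethylase, which overlaps Akap9 on the opposite strand, had a log2 change of -0.07, and Hsd17b7, a sterol ketone reductase, had -0.13 ± 0.07. The sterol reductase gene Tm7sf2 had 0.14. It was 0.0078 without saline library 2, its lowest at 4.94 FPKM, and 0.30 without saline library 1, its highest at 7.43 FPKM (unadjusted p = 0.0345, adjusted p = 0.505 in edgeR). Tm7sf2 overlaps Vps51 on the same strand, so its reads may be shared. Ebp, the sterol isomerase, had 0.16 ± 0.12, with 6.73 FPKM in baicalin library 3 and 4.93 to 5.55 FPKM in the other libraries. Nsdhl, which works beside Msmo1 in removing methyl groups, had 0.09, and Msmo1 itself 0.0032. Msmo1 spread from 6.73 to 7.96 FPKM with baicalin and from 6.09 to 8.78 FPKM with saline.

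The enzymes as a group did not separate the treatments. The mean log2 level of the 18 enzymes, relative to all libraries, was -0.10, -0.01 and 0.06 in the baicalin libraries and -0.02, 0.11 and -0.04 in the saline libraries. The baicalin values spanned both lower saline values, and saline library 2 was the highest of all. Saline library 2 held the highest value for 10 of the 18 enzymes and the lowest for 2. That library also stood apart in cell markers: dentate granule markers (Prox1, C1ql2, Dsp and Tdo2) summed to 27.9 FPKM there, against 46.1 to 50.4 FPKM elsewhere, and CA1 pyramidal markers were highest there at 97.6 FPKM. Oligodendrocyte markers were 379 to 473 FPKM with baicalin and 391 to 450 FPKM with saline, where saline library 2 was highest. The part of cell makeup in the enzymes' values was not tested. In bulk tissue, fewer cells of a type and less RNA per cell cannot be told apart.

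**Figure D3:**
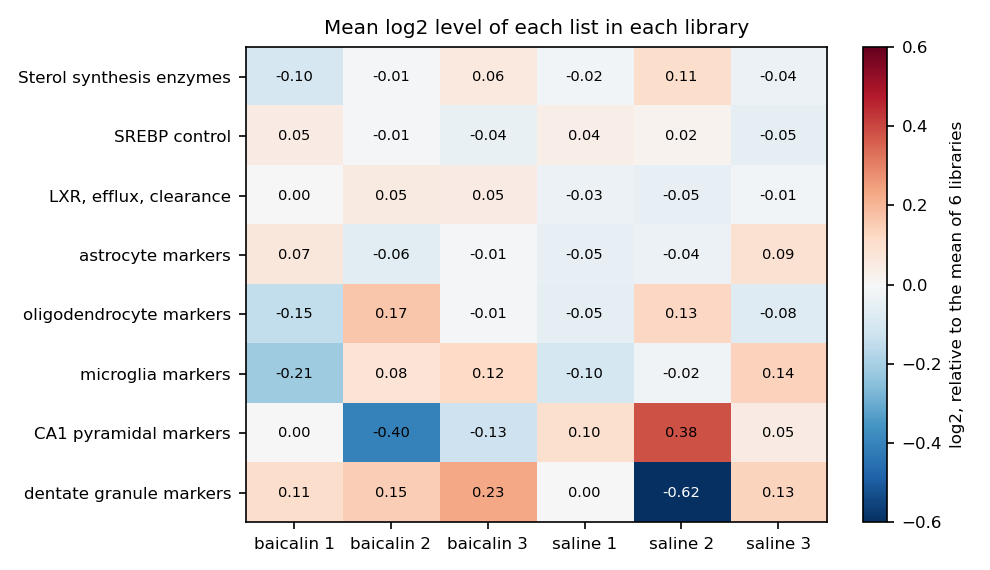
Mean log2 level of each gene list in each library, relative to the mean of the 6 libraries (TMM-scaled counts), for the 3 member groups and 5 marker lists, baicalin libraries left and saline libraries right. Saline library 2 is highest for the enzymes (0.11) and CA1 markers (0.38) and lowest for dentate granule markers (-0.62).

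Among the regulators, Srebf2 had the smallest p and was lower with baicalin. Srebf2 (chromosome 15, 82147181 to 82205379, plus strand, mm10) encodes SREBP-2, the main activator of cholesterol synthesis genes. It had 18.7, 18.3 and 18.4 FPKM with baicalin, against 21.7, 20.0 and 19.4 with saline. All 3 baicalin libraries lay below all 3 saline libraries, as they did for 9.52% of all genes. The log2 change was -0.13 ± 0.05 (SE), with an interval from -0.25 to -0.01, an unadjusted p of 0.0358 and an adjusted p of 0.402 in edgeR. Its direction was negative in 20 of 20 alternatives, with an unadjusted p under 0.05 in 13 of them and none with an adjusted p below 0.275. The unadjusted p was 0.0547 or more without any one of the 3 baicalin libraries or of saline libraries 1 and 2, and 0.0184 without saline library 3. It was 0.118 with the length trend across all genes removed and 0.0577 with a replicate block. The log2 change was -0.09 with that trend removed, and also -0.09 without saline library 1, the highest.

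Srebf1, which encodes the SREBP-1 forms that act more on fatty acid genes, had 4.55, 4.92 and 4.25 FPKM with baicalin and 4.71, 4.35 and 4.08 with saline. Its groups overlapped, and its log2 change was 0.07 ± 0.08. It overlaps Rai1 on the opposite strand. Taken as a ratio within each library, which no scaling affects, Srebf1 over Srebf2 was 0.243, 0.269 and 0.231 with baicalin, against 0.217, 0.218 and 0.210 with saline. The groups did not overlap, and an exact two-sided permutation test gave p = 0.1, the smallest that 3 against 3 libraries allow, adjusted to 0.4 over the 4 ratios tested.

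The sterol sensors did not part the groups. Scap had a log2 change of -0.04, with the narrowest interval of the members, from -0.15 to 0.07. Insig1, itself a target of SREBP, had 16.5, 16.2 and 15.5 FPKM with baicalin, against 15.7, 16.0 and 14.6 with saline. Insig2, the paralog less dependent on SREBP, had 13.2, 11.3 and 11.7 FPKM with baicalin, against 10.1, 11.9 and 11.0 with saline. Both overlapped between groups, with log2 changes of 0.07 ± 0.06 and 0.14 ± 0.09. The ratio of Insig1 to Insig2 averaged 1.34 ± 0.0970 with baicalin and 1.41 ± 0.129 with saline (± SD, n = 3 per group, exact permutation p = 0.6).

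Of the remaining genes grouped as SREBP control, Stard4 encodes a sterol transfer protein. Mylip, placed in that group here, encodes a ubiquitin ligase that lowers lipoprotein receptors and is induced by LXR. Stard4 had 3.84, 3.81 and 3.85 FPKM with baicalin, against 4.25, 4.10 and 3.93 with saline. The groups did not overlap and the baicalin libraries were nearly equal, while the log2 change was -0.09 ± 0.06 (adjusted p = 0.600 in edgeR). Mylip had -0.05 ± 0.11, and its baicalin libraries ran from 4.87 to 6.40 FPKM around the saline range of 5.51 to 6.23 FPKM.

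Apoe had the smallest p of the members. The gene (chromosome 7, 19696109 to 19699188, minus strand, mm10) encodes apolipoprotein E, the main lipid carrier of the brain, which astrocytes secrete. It had 346, 367 and 375 FPKM with baicalin, against 306, 294 and 306 with saline, from at least 47560 counts in each library. Every baicalin library lay above every saline library, as for 9.93% of all genes. The fold change was 1.21, a log2 change of 0.27 ± 0.05 (SE) with an interval from 0.16 to 0.38. The unadjusted p of 0.000733 was the 45th smallest of 13153, and the adjusted p was 0.213 in edgeR. DESeq2 gave a log2 change of 0.27 and an adjusted p of 0.00115.

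The direction of Apoe was positive in 20 of 20 alternatives and its unadjusted p was under 0.05 in all of them, with log2 changes from 0.19 under TPM scaling to 0.30 without baicalin library 1. DESeq2 alone of the 20 gave an adjusted p under 0.05, and the others ran up to 0.576 with a replicate block in edgeR. Short genes were higher with baicalin across the table: of 5 length bins, the shortest had a median log2 change of 0.11 and the longest one of -0.07. Apoe lay in bin 2, where the median was 0.03, and its log2 change was 0.23 with the length trend removed. Astrocyte markers (7 genes, none at 0) summed to 284 to 306 FPKM with baicalin and 278 to 316 FPKM with saline. Their log2 changes were positive in 4 of 7, from -0.28 for Gja1 to 0.32 for Gjb6, with a median of 0.0044. Microglial markers (5 genes, none at 0) summed to 32.5 to 39.6 FPKM with baicalin and 35.9 to 41.3 FPKM with saline. The part of cell makeup in the Apoe values was not tested.

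**Figure D4:**
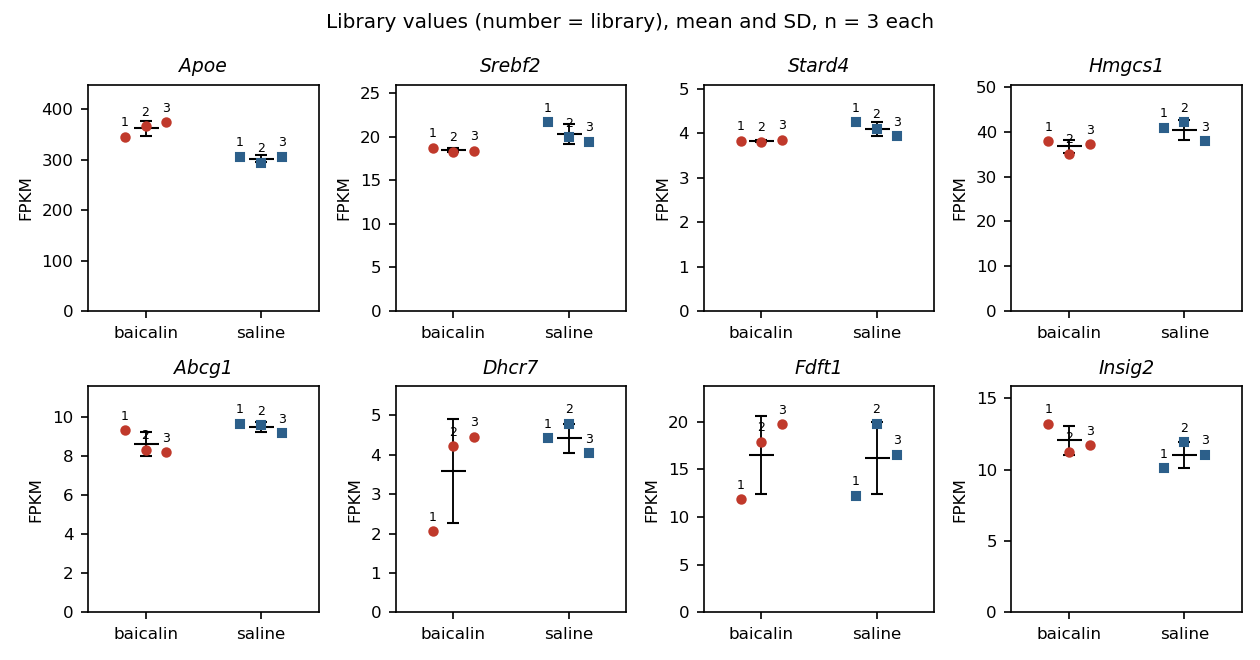
FPKM in each library for 8 members, with baicalin left and saline right in each panel; numbers name the library, and bars give the mean and SD (n = 3 each). Apoe is higher and Srebf2 and Stard4 lower in every baicalin library. Dhcr7 is low in baicalin library 1, and Fdft1 is low in library 1 of both groups.

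Of the 5 LXR, efflux and clearance genes tested, Apoe included, 4 were positive and 1 negative, with a median log2 change of 0.06. None passed in edgeR, while DESeq2 called Apoe. Nr1h2, which encodes LXR-beta, had 5.75, 7.04 and 6.75 FPKM with baicalin, against 6.06, 5.93 and 5.99 with saline. Baicalin libraries 2 and 3 lay above the saline libraries and library 1 below them, and the log2 change was 0.13 ± 0.09 (0.21, adjusted p = 0.346 in edgeR, without baicalin library 1). Nr1h3, which encodes LXR-alpha, had 0.881, 0.746 and 1.02 FPKM with baicalin, against 0.840, 1.04 and 1.03 with saline. These overlapped, and the fit with no filter gave a log2 change of -0.12 with an adjusted p of 0.860 in edgeR. Nr1h2 stood 6.75 times above Nr1h3 in mean FPKM, and the ratio of the pair averaged 7.52 ± 1.66 with baicalin and 6.25 ± 0.842 with saline (± SD, n = 3 per group, exact permutation p = 0.3).

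The transporters pointed in opposite directions without passing. Abca1, which loads lipid onto apolipoproteins, had 2.51, 2.98 and 2.73 FPKM with baicalin, against 2.48, 2.48 and 2.95 with saline, a log2 change of 0.06 ± 0.10. Abcg1, which hands cholesterol to lipoprotein particles, had 9.31, 8.30 and 8.18 FPKM with baicalin, against 9.63, 9.57 and 9.15 with saline. Its baicalin library 1 lay within the saline range and the other 2 below it, with a log2 change of -0.13 ± 0.07 (adjusted p = 0.493 in edgeR). Without baicalin library 1 it was -0.19, with an unadjusted p of 0.0213 and an adjusted p of 0.328. The ratio of Abca1 to Abcg1 averaged 0.321 ± 0.0458 with baicalin and 0.279 ± 0.0368 with saline (± SD, n = 3 per group, exact permutation p = 0.2). Cyp46a1, the neuronal 24-hydroxylase, had 34.7, 32.2 and 32.1 FPKM with baicalin, against 33.7, 33.3 and 32.4 with saline. Its log2 change of 0.0026 had an interval from -0.11 to 0.11.

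Genes around the pathway also gave no adjusted call in edgeR. The alternatives, removal of the length trend among them, were not examined for these genes. Of 23 sterol transport and turnover genes 22 were tested, with 5 positive, 17 negative and a median log2 change of -0.04. In this list Clu, another lipid carrier made by astrocytes, had 183, 188 and 181 FPKM with baicalin, against 175, 171 and 174 with saline, a log2 change of 0.09 ± 0.03 (adjusted p = 0.391 in edgeR). Lrp1, a receptor that takes up apolipoprotein E, had 15.2, 16.2 and 15.0 FPKM with baicalin, against 17.6, 16.9 and 17.6 with saline. Its log2 change was -0.16 ± 0.04 (adjusted p = 0.322 in edgeR). The groups did not overlap for Lrp1 and Clu, which the smallest p picked out, and for 5 of the 22 in all, against 19.4% of all genes. The lipoprotein receptor gene Vldlr and the efflux transporter gene Abcg4 each had -0.16, with overlapping groups.

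Fatty acid synthesis genes under SREBP were split, with 6 positive and 9 negative of 15 tested out of 16 (median -0.03). Elovl6, a fatty acid elongase, had 6.77, 5.61 and 5.56 FPKM with baicalin, against 7.12, 7.42 and 7.62 with saline, a log2 change of -0.30 ± 0.09 (adjusted p = 0.354 in edgeR). The acyltransferase gene Gpam had -0.14, while the desaturase gene Fads1 had 0.12 and Mid1ip1, which encodes an activator of acetyl-CoA carboxylase, had 0.14. The groups did not overlap for these 4, which the smallest p picked out, and for 5 of the 15 in all, against 19.4% of all genes. None passed (adjusted p from 0.354 to 0.438 in edgeR).

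The 11 genes of SREBP proteases and sterol-regulated degradation had a median of 0.03, with 8 positive and 3 negative. Among them Pgrmc1 had 0.06, Ube2g2 0.29 and Erlin2 0.06, none with an adjusted p below 0.637 in edgeR. In the non-sterol isoprenoid branch, 7 of 11 were positive (median 0.06). Pggt1b, a geranylgeranyl transferase subunit gene, had 1.31, 1.29 and 1.19 FPKM with baicalin, against 1.72, 1.75 and 1.498 with saline, a log2 change of -0.38 ± 0.12 (adjusted p = 0.356 in edgeR). Pdss1, of coenzyme Q side chain synthesis, had 0.22, the prenyltransferase subunit gene Fnta 0.13, and the dolichol synthesis gene Dhdds 0.57 ± 0.26. Of the LXR partners and other targets 7 of 8 were tested, with 1 positive and 6 negative (median -0.06). The corepressor gene Ncor1 had -0.08 ± 0.05 (adjusted p = 0.545 in edgeR), Arl4c, an LXR target, had -0.07, and the LXR partner gene Rxrb had -0.04.

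Library totals were 61303274 to 64983755 counts with baicalin and 65989141 to 67957752 counts with saline. Their mitochondrial share lay between 7.71 and 8.69% in the baicalin libraries and between 7.18 and 7.82% in the saline libraries. Hippocampal markers were present in every library. CA1 pyramidal markers summed to 56.3 to 75.2 FPKM with baicalin and 78.4 to 97.6 FPKM with saline, without overlap, and their part in the members' values was not tested. The summed ranges overlapped for all other marker lists. By log2 change, CA1 markers were negative in 4 of 4 (median -0.36) and dentate granule markers positive in 4 of 4 (median 0.33). None of these had an adjusted p under 0.05 in edgeR, and the part of dentate granule cells in the members' values was not tested either. Neuronal markers had 667 to 671 FPKM with baicalin and 653 to 692 FPKM with saline, and oligodendrocyte precursor markers 44.8 to 48.5 with baicalin and 43.8 to 51.3 with saline. Endothelial markers had 35.5 to 41.0 FPKM with baicalin and 35.7 to 39.7 FPKM with saline, and mural cell markers 34.3 to 37.8 with baicalin and 34.1 to 45.2 with saline. Choroid plexus markers had 16.7 to 61.9 FPKM with baicalin and 8.32 to 35.7 FPKM with saline, and meningeal markers 4.199 to 5.47 with baicalin and 4.47 to 8.999 with saline.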

How the data were processed

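Total RNA was depleted of ribosomal RNA and fragmented, per the labels' protocols. The authors' deposited table gives each gene a whole-number count, not normalized, and an FPKM value per library, per the file headers. Tools in the submitters' processing notes are bcl2fastq 2.0, HISAT2, StringTie, DESeq2 and limma, with build mm10; the sources used here do not give their options. A further 12 columns of values (6 samples) match no label and were not used. Genes were kept at a mean FPKM of 1 or more (13153 of 32201). Counts were scaled by TMM and tested with edgeR 4.0.16 under R 4.3.3, with a treatment term and Benjamini-Hochberg adjustment over all genes kept, at 0.05. The standard error is the log2 change divided by the root of F. Limma 3.58.1 (on log2 FPKM) and DESeq2 1.42.0 served as alternatives. The procedure was tried on simulated counts with set changes of 1.5-fold or more and no length trend, so that trial does not cover smaller changes. Replicates differed beyond counting noise (chi-square per degree of freedom 46.3 to 66.1). Members, lists and tests were chosen with earlier results of these data known. All 31 members are named, and from each of 5 related lists the 4 genes with the smallest unadjusted p, of which 2 are not reported here. Cell type marker lists are given by their sums, with directions added for astrocyte, CA1 and dentate granule markers.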

Additional observations from a re-analysis of the deposited data

How the results depend on the processing

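With 3 libraries a group, the fits did not exclude changes that lie inside the intervals given. The 30 members' fits held 0 adjusted calls in all alternatives except DESeq2, which called 1 member (Apoe) and 218 genes. Libraries 1, 2 and 3 of the groups correlated by 0.138, 0.0941 and 0.0353 in deviations from the group means, so the numbers were not taken to pair them. Each library correlated best with its own number, as a hint from the data. With the replicate block, 0 genes were called (1120 had an unadjusted p under 0.05), and 0 members were lower at an unadjusted p under 0.05. Leaving out 1 library gave 2 to 39 genes called (39 when baicalin library 1 was left out, 2 for baicalin library 3, 10 for saline library 2 and 14 for saline library 3). Members higher at an unadjusted p under 0.05 were then 1 to 2 (2 without baicalin library 1 or saline library 1), and members lower 0 to 3 (0 without baicalin library 2 or 3 or saline library 1 or 2, 3 without saline library 3). Members lower were 2 with library totals and with at least 5 FPKM, and 3 under TPM scaling. The cause was not tested.

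Median log2 changes under TPM scaling were -0.091 for the enzymes, -0.11 for SREBP control and -0.014 for LXR, efflux and clearance, the last being 0.11 with the length trend removed. Without 1 library the SREBP control median ran from -0.061 to 0.035 and the LXR one from 0.021 to 0.13.

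Of the 30 members tested, 17 kept their sign throughout, and 13, each within 0.12 of 0, changed sign in 47 fits in all. Nr1h3 was fitted only with no filter and with at least 0.1 FPKM (-0.12 in both). Under TPM scaling these were Pmvk (-0.058), Mvd (-0.024), Idi1 (-0.073), Fdps (-0.067), Fdft1 (-0.052), Msmo1 (-0.077), Srebf1 (-0.0053), Insig1 (-0.010), Abca1 (-0.014) and Cyp46a1 (-0.074). With the length trend removed they were Pmvk (-0.038), Mvd (-0.0016), Idi1 (-0.0038), Scap (0.0077) and Cyp46a1 (-0.013). With library totals they were Idi1 (-0.0033), Msmo1 (-0.0068) and Cyp46a1 (-0.0071). In limma with pseudocounts of 1 and 0.1 they were Idi1 (-0.00040 and -0.00046) and Cyp46a1 (-0.0049 and -0.0051). Cyp46a1 was at -0.00031 with at least 0.1 FPKM, and with at least 5 FPKM Idi1 was at -0.0022, Msmo1 at -0.0063 and Cyp46a1 at -0.0062. Without 1 library the ranges were -0.019 to 0.075 for Pmvk, -0.013 to 0.091 for Mvd, -0.030 to 0.071 for Idi1, -0.023 to 0.036 for Fdps, -0.13 to 0.22 for Fdft1, -0.25 to 0.0057 for Sqle, -0.13 to 0.14 for Msmo1, -0.16 to 0.035 for Mylip and -0.038 to 0.026 for Cyp46a1.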

Other observations

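A few genes beside the module split by library rather than by group; these were chosen after their values were seen. Dhdds, of dolichol synthesis, had 17.7, 16.9 and 16.8 FPKM with baicalin, against 8.56, 17.1 and 9.14 with saline, so that saline library 2 matched the baicalin libraries. Gramd1b, which encodes a protein that moves cholesterol from the plasma membrane to the endoplasmic reticulum, had 21.5 FPKM in baicalin library 3. Its other baicalin libraries had 7.53 and 9.30 FPKM and the saline libraries 8.10 to 8.42. Lrp8, a lipoprotein receptor gene, had 1.96, 5.34 and 1.66 FPKM with baicalin and 4.51, 2.16 and 2.34 with saline, so that 1 library of each group was high. None of these passed the adjusted threshold (adjusted p of 0.447, 0.539 and 0.998 in edgeR).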
